A study of Homo sapiens with 24 samples.

Results

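The subject is a set of 10 human tubulin genes, 6 of them alpha-tubulins (TUBA1A, TUBA1B, TUBA1C, TUBA3C, TUBA3E and TUBA4A) and 4 of them beta-tubulins (TUBB2A, TUBB2B, TUBB3 and TUBB6). Every probe that the array's annotation assigns to one of these symbols was taken, which gave 13 of the 47231 probes on the array. The genes were selected on earlier results of these data, with no record of which result led to the choice. Their differences between sip300 and siNS cells and between sip300 and siCBP cells are counted as used for it and are given as a description, with no test. The DHT comparisons within each arm, and those of siCBP with siNS cells, are tested on the assumption that they did not enter the choice. The sip300 response to DHT minus the siNS response is built from sip300 minus siNS differences, so it too is a description. Of the 13 probes, 12 probes of 9 genes passed the detection filter (detection p below 0.05 on at least 4 of the 24 arrays), as did 23038 probes of the whole array. The other probe, for TUBB2B, was detected on 2 arrays.

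RNA came from C4-2B cells, a human prostate cancer line derived from LNCaP that grows without added androgen but still responds to it. The cells received 1 of 3 siRNAs: sip300, against the acetyltransferase p300 (gene EP300), siCBP, against its paralog CBP (gene CREBBP), or siNS, the non-specific control. Each was then sampled after 16 h of 10 nM dihydrotestosterone (DHT, the androgen that binds the androgen receptor most tightly) or at 0 h, which gave 6 groups of 4 arrays: sip300 at 16 h and 0 h, siCBP at 16 h and 0 h, and siNS at 16 h and 0 h. All groups shared 3 days in hormone-depleted medium (phenol red-free RPMI 1640 with 5% charcoal-stripped serum) before the hormone, the labels name no vehicle for the 0 h arrays, and 1 cell line was used throughout. The labels do not say that the 4 replicates of a group were separate cultures, so p-values measure only the spread between these samples, which may be technical.

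Alpha- and beta-tubulin pair into the dimers that polymerise into microtubules, the hollow filaments that separate chromosomes, carry vesicles and shape the cell. Humans have several genes for each, called isotypes, whose proteins are nearly the same apart from their tails. Some isotypes are made in most dividing cells and others mainly in neurons or testis, and the mix of isotypes affects how microtubules behave and how they respond to drugs such as taxanes. p300 and CBP are coactivators that acetylate histones at enhancers and promoters and are recruited by the androgen receptor. Bulk RNA cannot tell fewer cells expressing a gene from less RNA per cell.

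The arrays detected 17663 to 19830 probes each. Each of the 2 slides carried 2 arrays from every group, and the mean deposited signal was 679 to 896 on slide 1 and 572 to 728 on slide 2. EP300 was lower in sip300 than in siNS cells by limma with Benjamini-Hochberg adjustment over all 23038 probes, with log2 differences of -1.19 at 16 h (adjusted p = 0.00278) and -0.88 at 0 h (adjusted p = 0.0245). CREBBP was lower in siCBP than in siNS cells by the same fit, with log2 differences of -1.74 at 16 h (adjusted p = 0.000116) and -1.68 at 0 h (adjusted p = 0.000213). Of 7 luminal prostate markers measured, 5 were detected on all 24 arrays, whereas the basal markers KRT5 and KRT14 were detected on none.

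TUBA3C and TUBA3E had 16 h signals that were 5.20-fold and 4.41-fold lower in sip300 than in siNS cells, TUBA4A was 1.67-fold lower, and TUBB3 was 3.98-fold higher. The TUBA3C signal in sip300 cells lay near the lowest detected signal, and without background correction its fold was 2.19. After DHT, TUBA3C rose 3.36-fold in siCBP cells and 2.84-fold in siNS cells, TUBA3E rose 2.78-fold in siCBP cells, and no member passed the test in sip300 cells. TUBA3E was 2.42-fold higher at 16 h in siNS cells, a change with a limma adjusted p of 0.0567, or of 0.00136 once replicates were blocked. The probes for TUBA1A, TUBA1B, TUBA1C, TUBB2A and TUBB6 passed no test of DHT or of siCBP against siNS cells.

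TUBA3C and TUBA3E belong to a group of 3 alpha-tubulin genes, with TUBA3D, best known from testis. TUBA3C lies on chromosome 13, and TUBA3E and TUBA3D both lie on chromosome 2. TUBA3C and TUBA3D code for nearly the same protein, and the sequences of the probes were not used here, so a TUBA3C, TUBA3E or TUBA3D probe may also capture transcripts of the others. The 250 bases upstream of the annotated start of each gene, from RefSeq on GRCh38.p14, are shown because TUBA3C and TUBA3E were the family members that rose with DHT. TUBA3D, which is not a member of the set, is shown beside them. The 3 windows share a feature found in few of the RefSeq windows searched. They resemble each other in sequence, so they are not 3 independent cases of it. The windows are chr13:19181825-19182074 on the minus strand for TUBA3C, chr2:130198440-130198689 on the minus strand for TUBA3E and chr2:131475869-131476118 on the plus strand for TUBA3D. Each is written 5′ to 3′ on the strand of the gene, and capitals mark CCAAT, searched on both strands.
TUBA3C: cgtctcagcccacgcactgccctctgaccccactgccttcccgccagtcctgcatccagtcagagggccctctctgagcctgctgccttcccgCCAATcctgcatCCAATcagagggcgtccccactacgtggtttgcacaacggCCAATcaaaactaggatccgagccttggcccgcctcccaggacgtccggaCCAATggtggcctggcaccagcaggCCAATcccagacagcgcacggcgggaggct
TUBA3E: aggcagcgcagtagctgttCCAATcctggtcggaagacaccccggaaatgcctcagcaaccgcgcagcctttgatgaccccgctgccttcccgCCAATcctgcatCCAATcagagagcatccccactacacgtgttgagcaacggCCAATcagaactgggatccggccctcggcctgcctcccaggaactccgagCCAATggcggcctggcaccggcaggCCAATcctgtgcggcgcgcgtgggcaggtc
TUBA3D: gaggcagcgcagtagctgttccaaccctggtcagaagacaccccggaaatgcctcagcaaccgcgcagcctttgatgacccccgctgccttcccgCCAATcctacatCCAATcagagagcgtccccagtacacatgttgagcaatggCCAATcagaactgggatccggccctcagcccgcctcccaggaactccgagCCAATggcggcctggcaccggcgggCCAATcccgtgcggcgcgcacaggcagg

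CCAAT is the core of the element bound by the factor NF-Y. The TUBA3C window held 5 copies, the TUBA3E window 6 and the TUBA3D window 5, where 0.319% of the 35116 RefSeq windows of this length held at least 5 and 32.0% held at least 1. The windows of the other alpha- and beta-tubulin genes examined held 0 to 3 copies. The motifs were chosen after the sequences had been seen, and a match is a description of the letters, not a binding site. AGAACA, the half-site of the androgen receptor element, was in none of the 3 windows and in 12.4% of all windows on either strand, which says nothing about binding outside these bases. The TUBA3E and TUBA3D windows were identical at 92.9% of aligned positions, and the TUBA3C window at 69.0% with TUBA3E and at 68.4% with TUBA3D.

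The TUBA3C probe (ILMN_1679482) lay near the lower end of what the arrays detect. In sip300 cells its log2 signal on replicates 1 to 4 was 5.81, 5.90, 5.15 and 6.26 at 16 h and 5.08, 5.96, 5.87 and 6.18 at 0 h. In siCBP cells it was 8.55, 7.87, 7.73 and 8.60 at 16 h and 7.19, 5.80, 5.66 and 7.11 at 0 h. In siNS cells it was 8.47, 7.91, 7.75 and 8.50 at 16 h and 7.12, 5.96, 6.12 and 7.41 at 0 h. All 8 arrays of siCBP and siNS cells at 16 h were above every other array, while the sip300 arrays at 16 h covered the same range as those at 0 h. The lowest signal that passed detection was 5.70 to 5.92 depending on the array, and the probe was detected on 3 of 4 sip300 arrays at each time, on 4 and 2 siCBP arrays at 16 h and 0 h, and on all siNS arrays.

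The group means of TUBA3C were 5.78 ± 0.47 at 16 h and 5.77 ± 0.48 at 0 h in sip300 cells (SD, n = 4 each). They were 8.19 ± 0.45 and 6.44 ± 0.82 in siCBP cells and 8.16 ± 0.39 and 6.65 ± 0.72 in siNS cells, 16 h before 0 h. The difference between sip300 and siNS cells was -2.38 at 16 h and -0.88 at 0 h on the log2 scale, and that between sip300 and siCBP cells -2.41 and -0.67. At 0 h the sip300 arrays overlapped with both other arms. The sip300 signal was near the lowest detected signal, and without background correction the sip300 minus siNS difference was -1.13 at 16 h and -0.36 at 0 h.

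The TUBA3E probe (ILMN_1652464) was detected on all 24 arrays. In sip300 cells its log2 signal was 7.64, 7.88, 7.57 and 8.61 at 16 h and 6.99, 7.83, 7.37 and 8.05 at 0 h. In siCBP cells it was 10.41, 9.88, 9.23 and 10.68 at 16 h and 8.83, 8.40, 7.93 and 9.16 at 0 h. In siNS cells it was 10.06, 10.13, 9.71 and 10.36 at 16 h and 9.46, 8.27, 8.18 and 9.26 at 0 h. The sip300 arrays lay below all siNS arrays at both times, and below all siCBP arrays at 16 h. The sip300 minus siNS difference was -2.14 at 16 h and -1.23 at 0 h, and the sip300 minus siCBP difference -2.13 and -1.02.

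**Figure D1:**
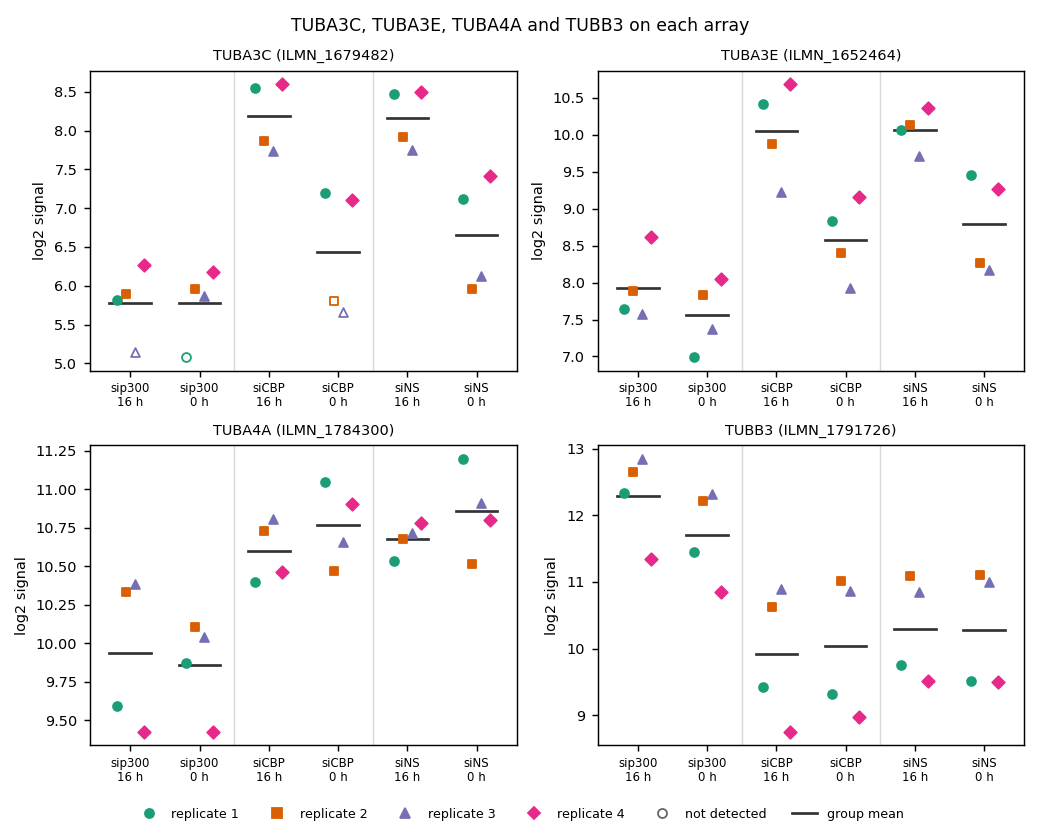
Log2 signal (vertical axis) of TUBA3C, TUBA3E, TUBA4A and TUBB3 on each of the 24 arrays, by group (horizontal axis), with symbols for the replicate number, open symbols where the probe was not detected and bars for the group means. TUBA3C and TUBA3E were high in siCBP and siNS cells at 16 h and low in sip300 cells, TUBA4A was lower in sip300 cells, and TUBB3 was higher in them.

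The change of TUBA3C with DHT was tested in each arm. In siCBP cells TUBA3C rose by 1.75 ± 0.37 (SE) on the log2 scale, or 3.36-fold (limma adjusted p = 0.0119), and in siNS cells by 1.50 ± 0.37, or 2.84-fold (adjusted p = 0.0324). Within replicate numbers the rise was 1.36, 2.07, 2.07 and 1.49 in siCBP cells and 1.35, 1.95, 1.62 and 1.09 in siNS cells, higher in 4 of 4 numbers in both arms. In sip300 cells the 4 changes were 0.73, -0.06, -0.73 and 0.08, and their mean of 0.01 had a 95% interval of -0.77 to 0.78 (adjusted p = 0.999). The siNS interval was 0.73 to 2.28. Without background correction the TUBA3C rise was smaller and still passed, at 0.89 in siCBP cells (adjusted p = 0.00338) and 0.78 in siNS cells (adjusted p = 0.00887).

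TUBA3E rose by 1.47 ± 0.34 (SE) on the log2 scale in siCBP cells, or 2.78-fold (limma adjusted p = 0.0229). In siNS cells the difference of 1.28 ± 0.34, or 2.42-fold, had an adjusted p of 0.0567, and with the replicate number as a block the adjusted p was 0.00136. It was positive in 4 of 4 replicate numbers in siCBP cells (1.30 to 1.59) and in siNS cells (0.61 to 1.86). In sip300 cells the 4 changes were also positive, at 0.65, 0.05, 0.20 and 0.56, but their mean of 0.37 (95% interval -0.34 to 1.08) did not pass the test (adjusted p = 0.999). Over all members, 2 of 12 probes were called in siCBP cells, where 1.68% of all probes were, 1 of 12 in siNS cells (1.96%), which became 2 with the replicate block (4.13%), and 0 of 12 in sip300 cells (0.525%). The median change over the 12 probes was 0.05 in sip300, 0.00 in siCBP and 0.04 in siNS cells, against -0.01 over all probes in each arm. The count of 0 in sip300 cells was also 0 at an unadjusted p below 0.05, where the replicate block gave 1 at that level, and 0 after adjustment with the block (1.15% of all probes) and on the authors' values.

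The arms' responses to DHT were compared directly. The sip300 response minus the siNS response equals the sip300 minus siNS difference at 16 h less that at 0 h. Both are counted as used for the choice of members, so its p-values and counts are a description and no independent test. The response of TUBA3C was lower in sip300 than in siNS cells by a log2 difference of -1.50 ± 0.53 (SE, 95% interval -2.59 to -0.40), with an unadjusted limma p of 0.00946 and an adjusted p of 1, which was 0.28 with the replicate block and 0.0421 on the authors' deposited values. Without background correction this difference was -0.77 (adjusted p = 1). The same difference was -0.91 for TUBA3E (interval -1.91 to 0.10, adjusted p = 1). The siCBP response minus the siNS response was 0.24 for TUBA3C (interval -0.85 to 1.34) and 0.20 for TUBA3E (interval -0.81 to 1.20). For sip300, 0 of 12 probes were called, where 0.00434% of all probes were. At an unadjusted p below 0.05 there was 1, and 3 with the block. For siCBP, 0 of 12 passed the test, where 0% of all probes did, and 0 had an unadjusted p below 0.05. A difference between the sip300 and siNS responses was therefore not called for either gene by this fit.

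Single arrays mattered to these calls. The TUBA3C call in siNS cells was lost without siNS at 16 h replicate 1, 2 or 4 or without siNS at 0 h replicate 2 or 3 (adjusted p 0.0528 to 0.147), although its log2 change stayed between 1.27 and 1.76 over the 8 omissions of an array of the pair. The TUBA3C and TUBA3E calls in siCBP cells were each lost without siCBP at 16 h replicate 1 or 4 or without siCBP at 0 h replicate 2 or 3 (adjusted p 0.0515 to 0.114), with log2 changes of 1.49 to 2.00 for TUBA3C and 1.26 to 1.75 for TUBA3E. TUBA3E in siNS cells passed without siNS at 0 h replicate 1 (adjusted p = 0.0293) or replicate 4 (0.0477). Within the slides, with 2 arrays a group and no call, TUBA3C differed by 1.08 on slide 1 and 2.41 on slide 2 in siCBP cells and by 1.59 and 1.42 in siNS cells, and TUBA3E by 1.29 and 1.66 and by 1.43 and 1.12.

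TUBA3D, which was not among the 10 genes, is near-identical to TUBA3C and so is no independent support. Its probe ILMN_2215639 had log2 signals of 8.90, 8.88, 8.89 and 8.9996 at 16 h and 7.73, 8.13, 7.43 and 8.11 at 0 h in sip300 cells, groups that did not overlap. In siCBP cells they were 11.50, 10.75, 10.93 and 11.30 at 16 h and 9.80, 8.82, 8.68 and 9.92 at 0 h. In siNS cells they were 11.55, 11.09, 10.66 and 11.48 at 16 h and 10.08, 8.46, 8.94 and 9.78 at 0 h. This probe rose with DHT by 1.81 in siCBP cells (limma adjusted p = 0.00137) and by 1.88 in siNS cells (adjusted p = 0.000879). In sip300 cells it differed by 1.07 (adjusted p = 0.25), a difference that passed with the replicate block (adjusted p = 0.0174). The second TUBA3D probe (ILMN_2215640) differed by 0.92, 1.01 and 0.29 in siCBP, siNS and sip300 cells (adjusted p = 0.035, 0.0147 and 0.999). The TUBA3 signal in sip300 cells was therefore not flat with DHT on every probe.

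**Figure D2:**
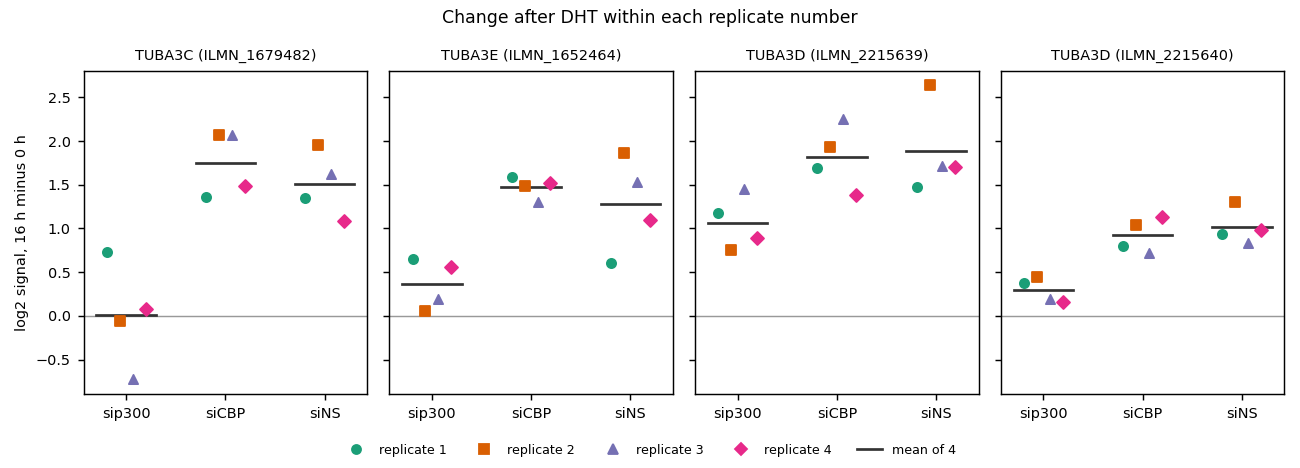
Log2 signal at 16 h minus that at 0 h (vertical axis) within each replicate number, for the TUBA3C and TUBA3E probes and both TUBA3D probes, in sip300, siCBP and siNS cells (horizontal axis), with bars for the mean of 4. Every siCBP and siNS point lies above 0, whereas the TUBA3C points of sip300 cells run from -0.73 to 0.73 and the TUBA3D probe ILMN_2215639 lies above 0 in all 3 arms.

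TUBA4A (chromosome 2), an alpha-tubulin that carries no tyrosine at its encoded end and is abundant in muscle, brain and platelets, was the other alpha-tubulin with lower signals in sip300 cells. Its probe (ILMN_1784300) had log2 signals of 9.59, 10.33, 10.39 and 9.43 at 16 h and 9.87, 10.10, 10.04 and 9.43 at 0 h in sip300 cells. In siCBP cells they were 10.40, 10.73, 10.80 and 10.46 at 16 h and 11.05, 10.47, 10.66 and 10.91 at 0 h. In siNS cells they were 10.54, 10.68, 10.72 and 10.78 at 16 h and 11.20, 10.51, 10.91 and 10.80 at 0 h. Every sip300 array lay below every siCBP and siNS array of its time.

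The TUBA4A means were 9.93 ± 0.50 at 16 h and 9.86 ± 0.31 at 0 h in sip300 cells (SD, n = 4 each), 10.60 ± 0.20 and 10.77 ± 0.26 in siCBP cells and 10.68 ± 0.10 and 10.86 ± 0.28 in siNS cells. The sip300 minus siNS difference was -0.74 at 16 h and -0.99 at 0 h, and the sip300 minus siCBP difference -0.66 and -0.91. At 16 h the sip300 minus siNS difference was -1.22 on slide 1 and -0.27 on slide 2. DHT changed TUBA4A by 0.07 in sip300 cells, -0.17 in siCBP cells and -0.18 in siNS cells (95% interval -0.61 to 0.26 in siNS cells), none of which passed the test.

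TUBB3 (chromosome 16), the class III beta-tubulin that is used as a marker of neurons and is also made by many carcinomas, was the one member with higher signals in sip300 cells. Its probe (ILMN_1791726) had log2 signals of 12.33, 12.65, 12.85 and 11.34 at 16 h and 11.44, 12.22, 12.32 and 10.85 at 0 h in sip300 cells. In siCBP cells they were 9.42, 10.63, 10.89 and 8.75 at 16 h and 9.32, 11.01, 10.87 and 8.98 at 0 h. In siNS cells they were 9.75, 11.09, 10.84 and 9.52 at 16 h and 9.51, 11.10, 10.997 and 9.502 at 0 h. At 16 h every sip300 array was above every siCBP and siNS array, and at 0 h sip300 replicate 4 fell inside the range of the other arms.

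In each of the 6 groups replicate 4 was lower than replicates 2 and 3. The TUBB3 means were 12.29 ± 0.67 at 16 h and 11.71 ± 0.69 at 0 h in sip300 cells (SD, n = 4 each), 9.92 ± 1.01 and 10.04 ± 1.05 in siCBP cells and 10.30 ± 0.78 and 10.28 ± 0.89 in siNS cells. Between same-numbered replicates the sip300 minus siNS difference ran from 1.56 to 2.58 at 16 h and from 1.12 to 1.94 at 0 h, positive in 4 of 4 numbers each time. Its mean was 1.99 at 16 h (3.98-fold) and 1.43 at 0 h (2.70-fold), and the sip300 minus siCBP mean was 2.37 and 1.66. On slides 1 and 2, which held different replicate numbers of the groups, the sip300 minus siNS difference was 1.53 and 2.45 at 16 h and 2.02 and 0.85 at 0 h.

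DHT had no effect on TUBB3 that passed the test. In sip300 cells the 16 h minus 0 h changes were 0.88, 0.43, 0.53 and 0.49, positive in 4 of 4 replicate numbers, with a mean of 0.58 (95% interval -0.55 to 1.72, limma adjusted p = 0.999, and 0.202 with the replicate block). The sip300 change was -0.43 on slide 1 and 1.60 on slide 2, which held different replicate numbers at 16 h and 0 h. In siCBP cells the mean was -0.12 (interval -1.25 to 1.01) and in siNS cells 0.02 (interval -1.11 to 1.16). 

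Markers of neuronal and neuroendocrine cells were examined beside TUBB3. Of the 5 measured, SYP (a synaptic vesicle protein) and NCAM1 (a neural adhesion molecule) were detected on 0 arrays, CHGA (a secretory granule protein) on 1, INSM1 (a neuroendocrine transcription factor) on 11 and ENO2 (neuron-specific enolase) on 24. The summed linear signal of the 5 ran from 495 to 817 at 16 h and from 474 to 852 at 0 h in sip300 cells, from 304 to 579 and from 245 to 428 in siCBP cells, and from 302 to 684 and from 290 to 545 in siNS cells. ENO2 gave the largest part of this sum, with log2 group means of 7.52 to 9.01 against 4.76 to 5.93 for the other genes. The sum therefore does not describe the panel as a whole. INSM1 differed between sip300 and siNS cells by 0.14 at 16 h and -0.26 at 0 h, and neither passed. ENO2 averaged 8.89 at 16 h and 9.01 at 0 h in sip300 cells against 7.93 and 8.07 in siNS cells, and its differences of 0.96 and 0.94 did not pass (limma adjusted p = 0.184 and 0.221; 0.0468 and 0.0582 with the replicate block). The part of these genes in the TUBB3 difference was not tested.

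The other 5 genes with kept probes differed little between groups. TUBA1A, TUBA1B and TUBA1C, neighbours on chromosome 12, provide much of the alpha-tubulin of dividing cells, TUBA1A being the main alpha isotype of young neurons. TUBB2A (chromosome 6) is a beta isotype known from brain and other tissues and TUBB6 (chromosome 18) a broadly expressed one. Over their 8 probes, the sip300 minus siNS differences ran from -0.27 to 0.17 at 16 h and from -0.17 to 0.03 at 0 h. The siCBP minus siNS differences ran from -0.26 to 0.10 at 16 h and from -0.39 to 0.00 at 0 h, and the DHT changes from -0.20 to 0.28 in sip300, from -0.18 to 0.14 in siCBP and from -0.20 to 0.15 in siNS cells. None of the 8 passed a test of DHT or of siCBP against siNS cells with or without the replicate block, and the 95% intervals of their DHT changes in siNS cells all lay within -0.80 to 0.65.

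The TUBA1 probes were among the brightest on the arrays, with 0.483% to 2.81% of all probes brighter, and whether such signals compress differences was not tested. TUBA1B (ILMN_1800261) had 14.14, 14.25, 14.40 and 13.93 at 16 h in sip300 cells, against 14.74, 14.32, 14.50 and 14.22 in siNS cells. TUBA1C (ILMN_1742167) had 13.95, 14.03, 13.96 and 13.48 at 16 h in sip300 cells, against 14.19, 14.03, 14.15 and 14.07 in siNS cells. These 2 TUBA1C groups met at 14.03 without overlapping, and the difference was -0.26. The siCBP arrays at 16 h, at 13.92, 13.68, 13.82 and 14.00, also lay below all siNS arrays on this probe, with a difference of -0.26. Its second probe (ILMN_3251341) had 13.87, 13.71, 13.55 and 13.70 in sip300 cells and 13.95, 13.85, 13.66 and 13.75 in siNS cells at 16 h, which overlapped.

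The probes of 1 gene did not always move together. The TUBA1A probes ILMN_2148819 and ILMN_1742981 correlated at r = 0.37 over the 24 arrays and the TUBB6 probes at r = 0.69, as a description of arrays that share their libraries. The TUBA1A probe ILMN_1742981 had 12.41, 12.59, 12.69 and 11.88 at 16 h in sip300 cells and 12.27, 12.41, 12.28 and 11.95 in siNS cells. TUBB2A (ILMN_2038775) had 8.61, 8.25, 8.21 and 8.11 at 16 h in sip300 cells and 8.63, 7.64, 8.19 and 8.41 in siNS cells. In both genes the groups overlapped.

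TUBB2B (ILMN_1680874), a beta-tubulin of developing neurons whose protein is nearly that of TUBB2A, passed detection on 1 sip300 and 1 siCBP array, both at 0 h, and had group means of 5.01 to 5.24. It was not tested, and at this signal a difference between groups was not detectable.

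**Figure D3:**
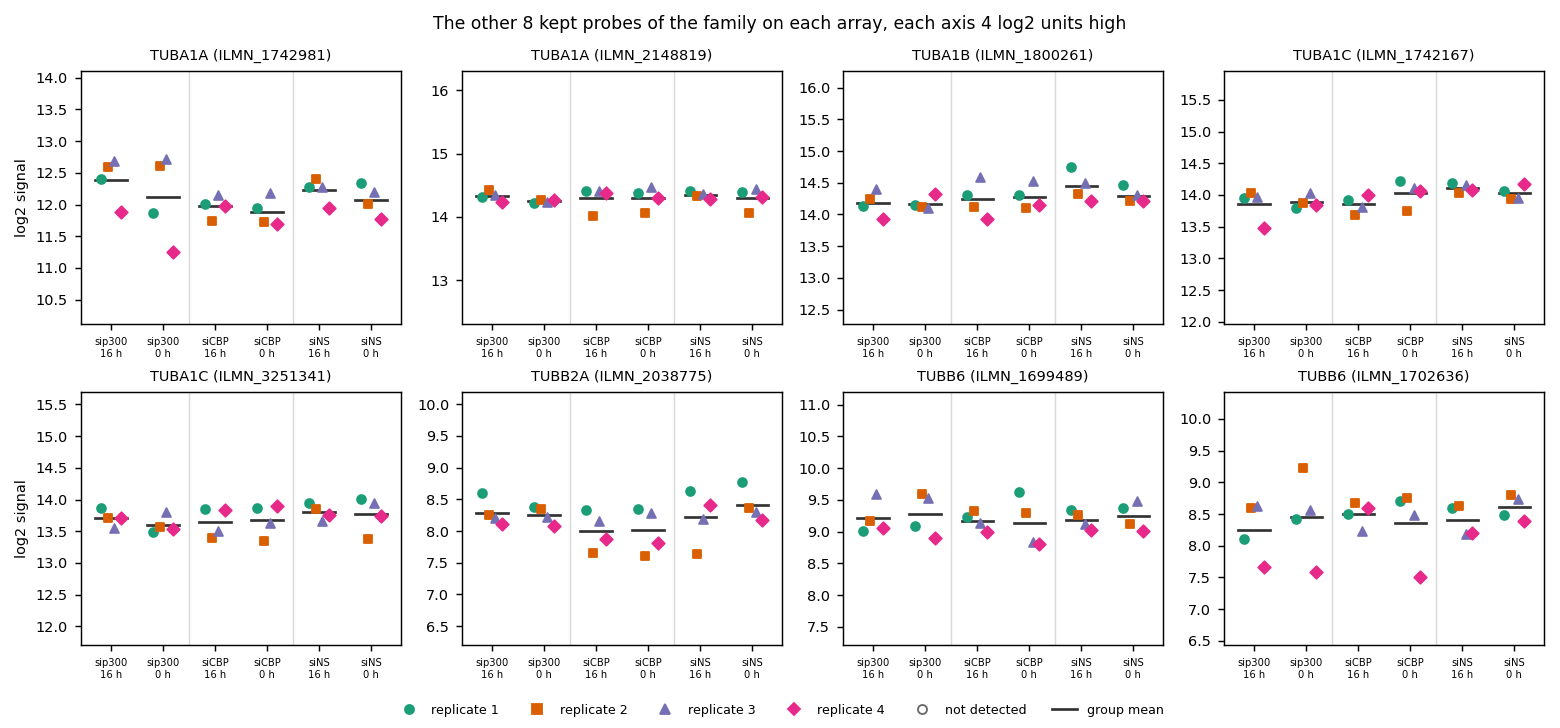
Log2 signal (vertical axis) of the 8 kept probes of TUBA1A, TUBA1B, TUBA1C, TUBB2A and TUBB6 on each array, by group (horizontal axis), each vertical axis spanning 4 log2 units, with bars for the group means. The group means of each probe lie close together beside the spread of the arrays.

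The knockdown of CBP left the members near their siNS values. For siCBP minus siNS, 0 of 12 probes passed at 16 h and 0 at 0 h, where 0.0217% and 0.0391% of all probes did, with 0 at an unadjusted p below 0.05 at either time, 1 at each with the replicate block, and 0 after adjustment with the block (0.0868% and 0.0651% of all probes) or on the authors' values. The differences of TUBA3C were 0.03 at 16 h (95% interval -0.75 to 0.80) and -0.21 at 0 h (-0.99 to 0.56). Those of TUBB3 were -0.37 (-1.51 to 0.76) and -0.23 (-1.37 to 0.90), and those of TUBA4A -0.08 at both times (-0.51 to 0.35 at 16 h).

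For sip300 minus siNS, 4 of 12 probes were called at 16 h, where 9.14% of all probes were, and 2 at 0 h, where 6.18% were; the count at 0 h became 4 with the replicate block (14.3%). For sip300 minus siCBP the counts were 3 at 16 h (5.7%) and 1 at 0 h (3.77%), and the count at 0 h became 3 with the block (9.84%). These comparisons are counted as used for the choice of members, so the counts describe them and nothing is read from them. The span between the lowest and the highest of the 6 group means was 2.51 for TUBA3E, 2.41 for TUBA3C, 2.37 for TUBB3 and 0.99 for TUBA4A on the log2 scale. It was 0.40 for TUBB2A, 0.27 for TUBA1B, 0.26 for TUBA1C, 0.14 for TUBB6 and 0.10 for TUBA1A, each by its brightest probe.

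**Figure D4:**
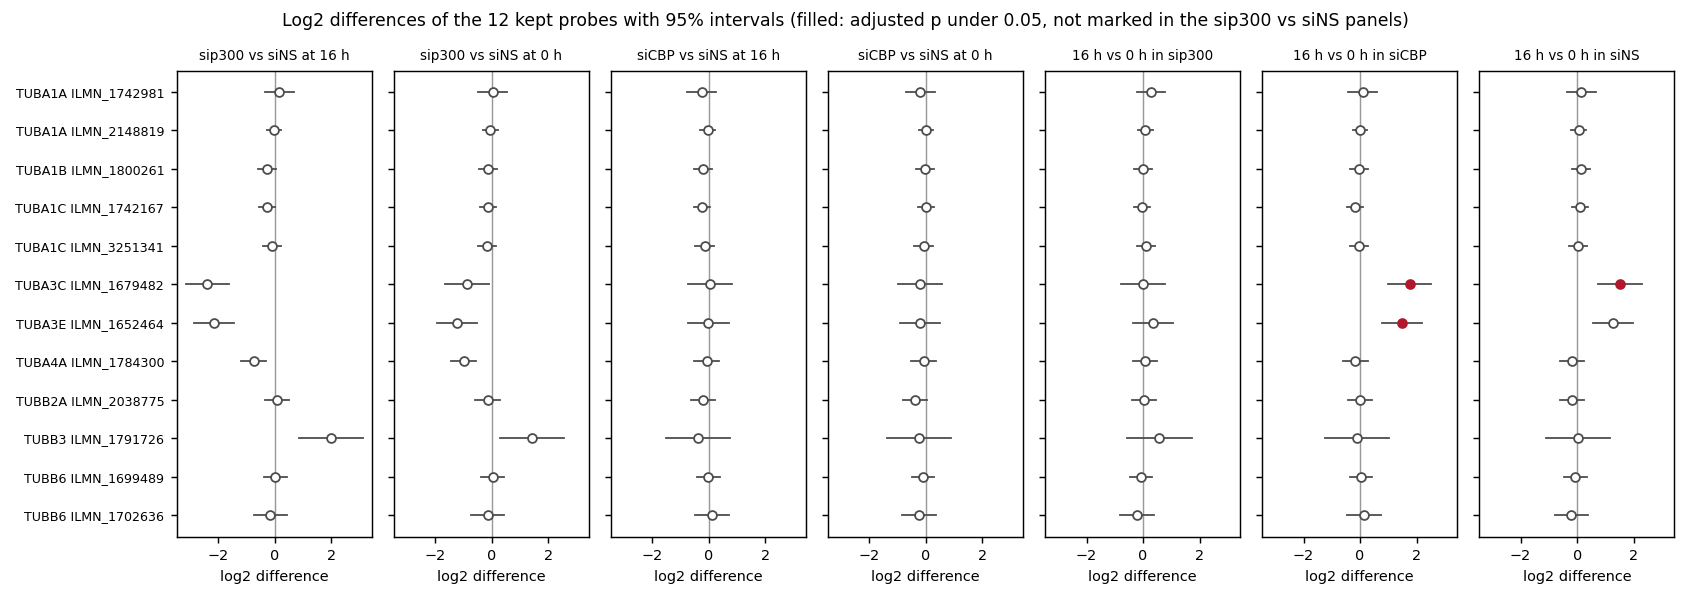
Log2 differences (horizontal axis) of the 12 kept probes (rows) with 95% intervals in 7 comparisons; filled points passed an adjusted p of 0.05, which is not marked in the 2 panels of sip300 against siNS, since those comparisons are counted as used for the choice of genes. TUBA3C passed in siCBP and siNS cells after DHT and TUBA3E in siCBP cells, with no filled point in the siCBP panels against siNS. The points are from the fit without the replicate block, and with the block TUBA3E also passed in siNS cells.

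The members' patterns were compared across the 24 arrays by Pearson's r, as a description. TUBA3C and TUBA3E followed each other at r = 0.97, and at 0.88 within groups. TUBB3 ran against TUBA3C at r = -0.74 and against TUBA3E at -0.75, and within groups at -0.83 and -0.81. Replicates 1 and 4 tended to be high in the TUBA3 genes and low in TUBB3, and replicates 2 and 3 the reverse. The same replicate numbers therefore carried part of these relations, apart from the siRNA and the hormone.

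Outside the 10 genes, TUBA3E was most like TUBA3D (r = 0.97), SDF2L1, a chaperone of the endoplasmic reticulum (0.94), and LCP1, an actin-bundling protein (0.92). TUBA3C was most like TUBA3D (0.96), SDF2L1 (0.95) and SPCS3, a subunit of signal peptidase (0.89). TUBB3 was most like SOX4, a transcription factor (0.95), SBK1, a kinase (0.95), and MFGE8, a secreted glycoprotein (0.94). SDF2L1 averaged 11.63 at 16 h and 11.32 at 0 h in sip300 cells, 12.44 and 11.81 in siCBP cells and 12.33 and 11.77 in siNS cells. SOX4 averaged 12.71 and 12.32 in sip300 cells, 11.22 and 11.44 in siCBP cells and 11.51 and 11.43 in siNS cells.

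Of 9 other alpha- and beta-tubulin genes listed, 5 had a kept probe, and TUBA4B, TUBA8, TUBAL3 and TUBB8 were detected on 0 arrays. TUBB4A, a beta-tubulin of the nervous system, had log2 signals of 10.53, 10.43, 10.02 and 9.49 at 16 h and 10.19, 10.50, 10.60 and 9.36 at 0 h in sip300 cells, against 8.09, 8.60, 8.02 and 7.80 at 16 h and 8.48, 8.71, 8.99 and 7.79 at 0 h in siNS cells. These groups did not overlap, and TUBB4A was 3.96-fold higher at 16 h (limma adjusted p = 0.000809) and 3.19-fold higher at 0 h (adjusted p = 0.0042). The list was made with earlier results of these data known, so its p-values for sip300 minus siNS cells are a description. TUBB3 and TUBB4A correlated at r = 0.90 over the 24 arrays, and at 0.83 within groups. TUBA3D was lower in sip300 than in siNS cells by 1.69 at 16 h and 0.97 at 0 h on probe ILMN_2215640.

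TUBB, the main beta-tubulin of dividing cells, differed on its brighter probe ILMN_2101885 by 0.28 at 16 h (limma adjusted p = 0.374) and 0.03 at 0 h (0.961). Its other probe ILMN_1665583 differed by 0.50 at 16 h (limma adjusted p = 0.0915, and 0.0464 with the replicate block) and 0.34 at 0 h (0.314). TUBB4B, also broadly expressed, differed by -0.18 and -0.33, and TUBB1, the isotype of platelets, by 0.04 and 0.23, none of which passed. In the DHT comparisons TUBA3D was the one gene of this list that passed, in siCBP and siNS cells. With the replicate block its probe ILMN_2215639 also passed in sip300 cells.

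Genes that act on tubulin were counted by list, each gene by its brightest kept probe, for sip300 minus siNS cells, where 11.8% of all 12438 genes were called at 16 h and 7.85% at 0 h. These lists, too, were made with earlier results known, so their counts and p-values in this comparison are a description and no independent test. Of 16 tubulin-modifying enzymes, 5 rose at 16 h and 3 at 0 h, and none fell, with medians of 0.26 and 0.37 against 0.03 and 0.03 over all genes. With the replicate block 7 rose at 16 h, where 21.6% of all genes were called, and 5 rose and 1 fell at 0 h, where 18.1% were. ATAT1, which acetylates alpha-tubulin inside the microtubule, rose by 1.07 at 16 h (limma adjusted p = 0.00117) and 0.88 at 0 h (0.00634). SVBP, the partner of the vasohibins that remove the end tyrosine of alpha-tubulin, rose by 1.30 (0.00434) and 1.00 (0.0287), and VASH2, one of those vasohibins, by 1.23 at 16 h (0.0184). AGBL5, a carboxypeptidase that removes glutamates from tubulin tails, rose by 0.75 (0.0106) and 0.69 (0.0232).

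Of 22 microtubule-associated proteins and stathmins, 3 rose at each time and none fell, where 11.8% of all genes were called at 16 h and 7.85% at 0 h. The list medians were -0.04 at 16 h and 0.02 at 0 h, against 0.03 over all genes at both times. With the replicate block 3 rose at 16 h and 4 at 0 h, where 21.6% and 18.1% of all genes were called. MAP2, a microtubule stabiliser of dendrites, rose by 0.96 at 16 h (limma adjusted p = 0.0184) and 2.14 at 0 h (4.51e-05). MAP1B, prominent in growing axons, rose by 2.30 at 16 h (0.0338). CLASP1, which stabilises plus ends, rose by 0.71 (0.00534) and 0.58 (0.0233), and MAPRE3, an end-binding protein, by 0.73 at 0 h (0.0287). Genes that were not called went both ways. STMN1 differed by 0.35 at 16 h and 0.24 at 0 h, STMN2 by -0.46 and -0.26, STMN3 by -0.15 and -0.32, and DCLK1 by -0.39 and -0.11.

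Of 21 genes of tubulin folding and autoregulation, none passed at 16 h, where 5 had an unadjusted p below 0.05 as did 27.8% of all genes. With the replicate block 3 rose and 2 fell at 16 h, and 1 rose and 2 fell at 0 h. At 0 h TCP1, a subunit of the chaperonin that folds tubulin, fell by 0.63 (limma adjusted p = 0.0415). Of 11 gamma-, delta- and epsilon-tubulin and ring complex genes, none passed at 16 h, where 1 had an unadjusted p below 0.05, and with the block 1 fell at 16 h and 2 fell at 0 h. At 0 h TUBG1, the tubulin that nucleates microtubules, fell by 0.47 (0.0433). Of 7 severing and depolymerising proteins, KIF2C, a mitotic depolymerase, fell by 0.81 at 16 h (0.0384) and KATNAL1, a katanin subunit, rose by 0.99 at 0 h (0.033). After DHT, without the block, the one call outside the tubulins on these lists was MAP7D1, a microtubule-binding protein, which rose by 0.88 in siNS cells (0.011). With the block 1 modifying enzyme rose and 1 fell in each of siCBP and siNS cells, where 4.26% and 5.02% of all genes were called. With it 1 of the microtubule-associated proteins and stathmins rose in each arm, including sip300 cells, where 1.37% of all genes were called. None of the 5 lists had a call for siCBP minus siNS cells.

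**Figure D5:**
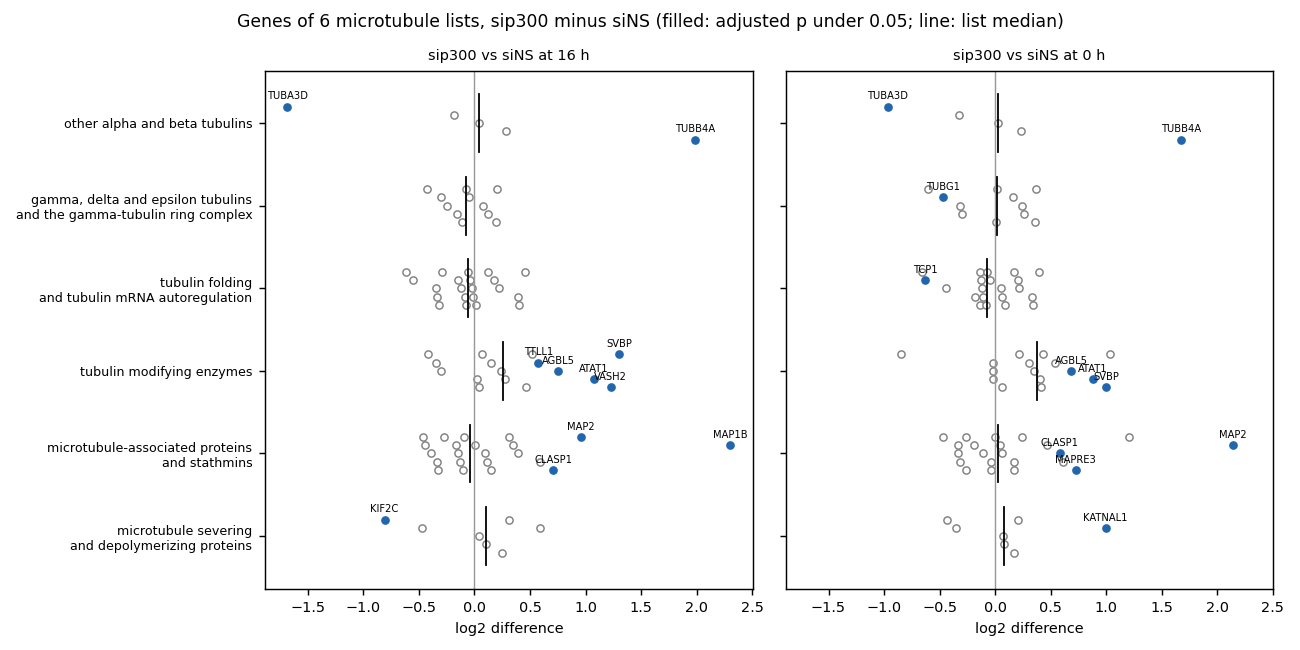
Log2 differences between sip300 and siNS cells (horizontal axis) at 16 h (left panel) and 0 h (right panel) of each gene on the 5 lists of genes that act on tubulin and on the list of other alpha- and beta-tubulins (rows), with filled points for an adjusted p below 0.05. Calls are from the fit without the replicate block and are a description, since the lists were made with earlier results known. Filled points of the modifying enzymes lie to the right of 0 at both times.

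Of the 7 luminal markers, KLK2 and TMPRSS2, both known androgen targets, rose with DHT in every arm with or without the replicate block. KLK3 did so with the block. KLK2, a kallikrein protease, rose with DHT by 3.17 in sip300 cells, 3.64 in siCBP cells and 3.91 in siNS cells (limma adjusted p = 0.000144, 1.47e-05 and 5.44e-06). It was detected on 18 of 24 arrays. Its mean in sip300 cells at 0 h was 5.46, below the lowest detected signal of 5.70 to 5.92. That bounds what the size of KLK2 differences from this group can show. TMPRSS2, a membrane serine protease, rose by 2.15, 3.07 and 2.41 (adjusted p = 0.000832, 5.51e-06 and 9.87e-05). KLK3, prostate-specific antigen, differed by 2.45, 2.22 and 2.06 (adjusted p = 0.142, 0.111 and 0.137), and passed in all 3 arms with the replicate block (0.000646, 0.000936 and 0.00166). HOXB13, a prostate homeobox factor, fell by 0.95 in siNS cells (adjusted p = 0.0494), and with the block also by 0.67 in siCBP cells (limma adjusted p = 0.0292). The luminal marker FOLH1 fell with the block by 0.58 in siCBP cells (0.0449) and by 0.67 in siNS cells (0.0163). TMPRSS2, KLK2 and KLK3 were also lower at 16 h in sip300 than in siNS cells, with log2 differences of -2.15, -1.96 and -2.12 (limma adjusted p = 0.000412, 0.00626 and 0.0442). At 0 h, without the hormone, their differences were -1.89, -1.23 and -2.51 (limma adjusted p = 0.00183, 0.0973 and 0.0228). KLK2 at 0 h passed with the block (0.0122). The marker lists were made with earlier results known, so these sip300 minus siNS p-values are a description. Their part in the tubulin differences was not tested.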

How the data were processed

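RNA of 24 C4-2B samples was read on Illumina bead arrays. The authors deposited 1 signal intensity and 1 detection p-value per probe and array, not background-corrected as far as the values show, and a table of processed log2 values whose medians were 5.45 to 5.47 on the 24 arrays. Their processing notes name limma with no version, and the steps behind the log2 table are not given in the sources used here. The log2 values computed here correlated with the deposited log2 values at 0.998 or more on every array.

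From the deposited intensities of 48118 rows, 887 control rows were left out after normexp background correction by the detection p-values, and quantile normalization and log2 with an offset of 16 followed (nec and normalizeBetweenArrays, limma 3.58.1, R 4.3.3). The 23038 probes with a detection p below 0.05 on at least 4 of 24 arrays were fitted in 1 model of 6 groups (limma lmFit and eBayes, 18 residual degrees of freedom). Adjusted p is Benjamini-Hochberg over those probes, and called means below 0.05. The probe annotation is GEO's platform table, with 30074 probes updated by Entrez identifier against RefSeq. Genes of a list are read by their brightest kept probe, 12438 genes in all. Promoter windows are RefSeq's on GRCh38.p14, with entries for all 10 members, and were searched with Biopython 1.88.

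Same-numbered arrays deviated together: over the 60 same-number pairs across groups the correlation of deviations was never below 0.13 and reached 0.52 (median 0.29), while the 180 pairs of different numbers had a median of -0.10, and 24 of 24 arrays were nearest to their own number. The numbers come from the sample titles and were taken to pair the arrays. P-values, intervals, list calls and figures are from the fit without the number unless the replicate block is named. Where a call changes, the result of the fit that adds the number (residual degrees of freedom 15) stands.

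The alternatives were the replicate block, slide as a block, each slide alone, no background correction, the authors' values, no detection filter, detection on all 24 arrays, 1 probe per gene, trended robust eBayes, and leaving out each array. The members and the gene lists were chosen with earlier results of these data known. Every member probe was named, with up to 4 called genes a list by smallest adjusted p, all other alpha- and beta-tubulins, and for the 3 members with the largest span between group means the 3 genes of highest correlation. The fits were tested on simulated data. The number of arrays limits the precision.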

Additional observations from a re-analysis of the deposited data

Results flagged for a closer look

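Among 72 groups of 4 arrays (12 kept probes in 6 groups), 2 had an array far from the other 3, where the gap to the nearest array divided by the group's range exceeded Dixon's 95% limit. Chance gives about 1 in 20 such groups. The TUBA1A probe ILMN_2148819 read 14.02 on siCBP at 16 h replicate 2, against 14.38 to 14.41 on the other 3 arrays, a ratio of 0.925. The TUBA1C probe ILMN_1742167 read 13.48 on sip300 at 16 h replicate 4, against 13.95 to 14.03 on the other 3 arrays, a ratio of 0.863.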

How the results depend on the processing

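No called log2 difference of a member, TUBA3D or TUBB4A probe changed sign under the alternatives run. Uncalled ones did between slides, such as TUBA4A with DHT in sip300 cells at -0.56 on slide 1 and 0.71 on slide 2. For TUBA3D and TUBB4A the check left out sip300 minus siCBP cells. The other named genes, the markers, EP300 and CREBBP were not checked for sign in this way. Of the recomputed counts of called member probes 47 moved by more than 1.5 times and 327 did not. For DHT in siNS cells the count of 1 became 2 with the replicate block, with slide as a block, without background correction, with 1 probe per gene and on the authors' values, and 0 with no detection filter. For DHT in siCBP cells the count of 2 became 1 with detection required on all 24 arrays. For sip300 minus siNS at 0 h the count of 2 became 4 with the replicate block and on the authors' values and 1 with no filter, and for sip300 minus siCBP at 0 h the count of 1 became 3 with both. The difference of the DHT responses between sip300 and siNS cells had a count of 1 on the authors' values, against 0. With 2 arrays a group, each slide alone gave 0 for DHT in siCBP and siNS cells and for both sip300 comparisons at 0 h, and slide 2 alone gave 0 for both at 16 h. Leaving out each array gave counts of 0 to 2 for DHT in siCBP cells and in siNS cells, 1 to 2 for sip300 minus siNS at 0 h and 2 to 4 at 16 h, and 0 to 1 for sip300 minus siCBP at 0 h and 2 to 4 at 16 h. With the replicate block, which pairs the arrays by number, no tested member call changed other than TUBA3E with DHT in siNS cells. The causes of these moves were not tested. TUBA3C in sip300 cells and TUBB2B lay near the detection limit, which bounds what their differences can show.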
